A study of Mus musculus with 3 samples.

Results

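The glutathione transferases described here are 10 genes, Gsta4, Gstm1, Gstm2, Gstm5, Gstp1, Gsto1, Gstt1, Gstt2, Gstk1 and Gstz1, taken by symbol from a table of 12852 genes. All 10 were in the table. They were measured by RNA sequencing in the mouse melanoma line B16F10, in 2 libraries from cells in which Med23 had been knocked down and 1 library from wild type cells, titled siCtrl. Med23 encodes a tail subunit of Mediator, the complex that links transcription factors to RNA polymerase II. The table joins the names of both knockdown columns in 1 header cell, so these libraries are called first and second by their place. The labels give their titles as siMed23A and siMed23B and their genotypes as Med23 knockdown-1 and Med23 knockdown-2 and do not say whether they came from separate siRNAs or cultures, so their spread may be technical, and nothing measures the spread of control cells.

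Glutathione transferases join the tripeptide glutathione to reactive, often electrophilic molecules, which makes these easier to export and less harmful. The soluble enzymes fall into classes named by Greek letters, of which alpha, mu and pi do much of the conjugation of foreign compounds and of products of lipid oxidation, while omega, theta, zeta and kappa enzymes have more particular substrates. Many alpha, mu and pi genes are known in mouse as targets of Nrf2 (encoded by Nfe2l2), the transcription factor of the antioxidant response. Melanin synthesis itself makes quinones and peroxide, which pigment cells must detoxify.

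Values are RPKM, read densities scaled to transcript length and library size, a scaling meant to let genes be compared. The libraries had also been given a common distribution, and levels of genes that share sequence are less certain. Changes are log2 ratios of knockdown to control on the log2(RPKM + 1) scale, which understates the change of genes near 1 RPKM. A gene was called when limma's p, with Benjamini-Hochberg adjustment over all 9722 genes of at least 1 RPKM on average, was under 0.05. Med23 was 1.65 and 1.61 RPKM in the knockdown libraries, against 5.23 RPKM in the control. All 7 melanocyte markers examined were listed, with a summed level of 2977 and 2868 RPKM in the knockdown libraries and 6923 RPKM in the control. Of 17 markers of leukocytes, endothelium, fibroblasts, epithelium and hepatocytes, 15 were not listed. The macrophage marker Cd68 was 10.0 and 10.1 RPKM in the knockdown libraries and 16.9 RPKM in the control, and Col1a1 stayed below 1 RPKM in each library. The part of these markers in the results was not tested. A bulk library cannot tell fewer cells that express a gene from less RNA per cell.

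The transferases moved in both directions after knockdown. Gsta4 and Gstp1 fell by a wide margin and Gsto1 by a small one, Gstt1, Gstm5 and Gstm2 rose, and Gstm1, Gstk1 and Gstz1 did not pass the test. Of the 9 members tested, 3 were called higher, where 26.3% of all tested genes were, and 3 lower, where 24.0% were. In all 6 of 9 were called, beside 50.3% of all tested genes. The members' median log2 ratio was 0.06, and that of all tested genes was 0.01. Changes of at least 2-fold in both knockdown libraries were seen for 3 members. Gsta4 and Gstp1 were lower, as were 4.76% of all tested genes, and Gstt1 was higher, as were 4.97%. The tenth member, Gstt2, was under the filter. These p-values draw their spread from the knockdown libraries and assume that the lone control varies as they do.

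**Figure D1:**
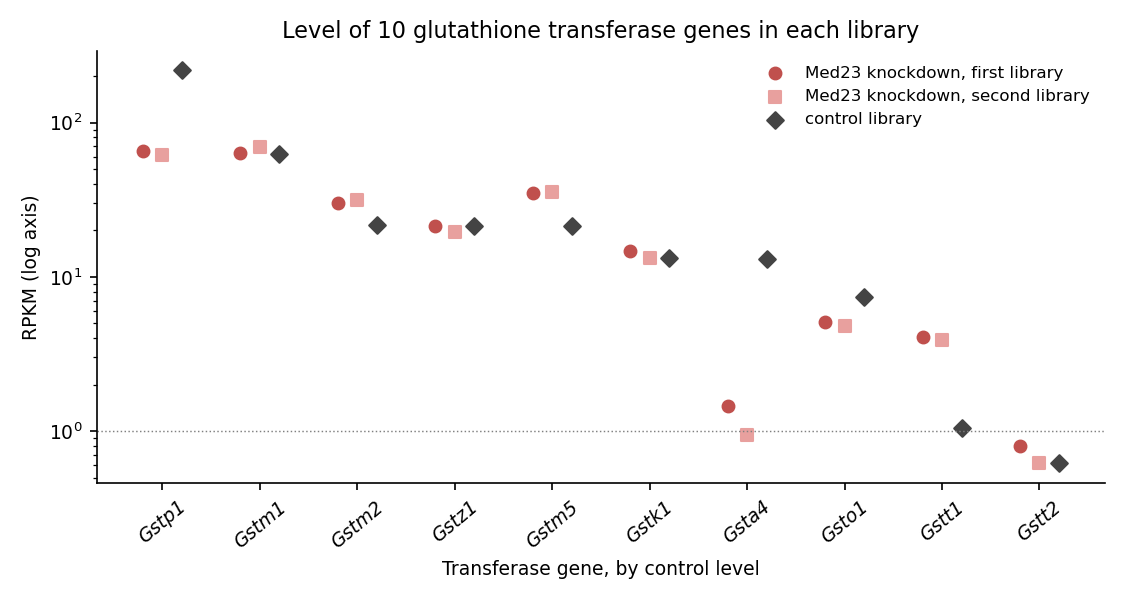
RPKM (log axis) of the 10 transferase genes in the first (circles) and second (squares) Med23 knockdown library and in the control (diamonds), ordered by control level, with a dotted line at 1 RPKM. Gstp1 and Gsta4 lie well below their control values after knockdown and Gstt1 well above, while Gstm1, Gstz1 and Gstk1 lie close to theirs.

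Gstp1 (ENSMUSG00000060803), the pi-class enzyme, was by far the most abundant transferase of the control cells. It measured 65.6 and 61.8 RPKM in the first and second knockdown library and 217.7 RPKM in the control. Both knockdown values lay far below the control value and close to each other. The mean of 63.7 ± 2.65 RPKM (SD, n = 2) was 3.42-fold lower than the control, with a log2 ratio of -1.76 (SE 0.06, adjusted p = 0.000162 by limma). Gstp1 was the only member still called when the control was given 3 times the SD of a knockdown library (limma adjusted p = 0.0210), a setting in which 0.792% of all tested genes were called lower.

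Mouse cells carry a neighbouring, near-identical pi gene, Gstp2. It measured 5.75 and 4.44 RPKM in the knockdown libraries and 11.8 RPKM in the control, with a log2 ratio of -1.08 (SE 0.15, adjusted p = 0.00411 by limma). Of all windows of 50 bases in the longest annotated Gstp1 transcript, 62.3% also occurred in Gstp2, so the split of reads between these genes is uncertain. Their sum, which depends little on that split, was 71.3 and 66.3 RPKM in the knockdown libraries and 229.6 RPKM in the control. Both pi genes fell, and their sum was lower in each knockdown library.

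The promoters of Gstp1 and Gstp2 are shown because these adjacent genes fell together, and that of Gstm5 because it rose and holds the same kind of motif. Each run is the 250 bases before the gene's start, 5′ to 3′ on the gene's own strand, from RefSeq (GRCm38.p6), with capitals on the site TGANTCA, bound by activator protein 1 factors such as Fos and Jun. The run of Gstp1 lies at chr19:4037913-4038162 on the minus strand, that of Gstp2 at chr19:4042222-4042471 on the minus strand and that of Gstm5 at chr3:107895604-107895853 on the plus strand.
Gstp1: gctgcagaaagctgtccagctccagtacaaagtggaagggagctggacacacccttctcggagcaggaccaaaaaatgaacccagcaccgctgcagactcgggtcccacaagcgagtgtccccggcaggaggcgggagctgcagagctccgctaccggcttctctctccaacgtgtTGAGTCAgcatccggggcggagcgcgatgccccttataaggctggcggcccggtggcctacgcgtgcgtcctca
Gstp2: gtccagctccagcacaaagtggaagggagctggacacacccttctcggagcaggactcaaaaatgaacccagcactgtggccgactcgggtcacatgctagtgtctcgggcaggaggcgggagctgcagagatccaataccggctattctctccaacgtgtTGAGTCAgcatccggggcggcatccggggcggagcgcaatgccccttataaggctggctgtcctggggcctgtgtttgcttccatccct
Gstm5: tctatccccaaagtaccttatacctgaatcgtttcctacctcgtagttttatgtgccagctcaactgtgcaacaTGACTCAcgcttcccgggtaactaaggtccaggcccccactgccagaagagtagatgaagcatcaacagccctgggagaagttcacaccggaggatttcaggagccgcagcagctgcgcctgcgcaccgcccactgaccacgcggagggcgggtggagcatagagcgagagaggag

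The Gstp1 and Gstp2 runs were identical at 207 of 265 aligned columns, or 78.1%. The site TGAGTCA began at position -74 from the start in Gstp1 and at -89 in Gstp2. In both it was followed by GC, so that the same bases also matched TGANNNNGC, the core of the antioxidant response element. In Gstm5 the site read TGACTCA and began at -176. Promoters were listed for 8 of the 10 members, some with more than 1 start, which gave 10 runs, and Gsta4 and Gstt2 had no entry. TGANTCA, searched on both strands, was in 2 of these 10 runs, those of Gstp1 and Gstm5, which moved in opposite directions, and in 6.75% of all 32851 promoters. TGANNNNGC, also searched on both strands, was in 5 of the 10 and in 35.2% of all promoters. The 5 were those of Gstp1, which fell, of Gstm5 and Gstt1, which rose, and both runs of Gstz1, which did not pass the test. The E-boxes CATGTG and CACGTG, which Mitf can bind, were searched in the same way. CATGTG was in 12.3% and CACGTG in 6.02% of all promoters, and among the members' runs 1 held either, that of Gsto1, with CATGTG on the opposite strand. A match is only a match of letters, and no binding was measured.

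Gsta4 (ENSMUSG00000032348) had the largest relative change of the members. This alpha-class enzyme is best known for its high activity on 4-hydroxynonenal, an aldehyde formed when lipids are oxidised. It was 1.45 and 0.943 RPKM in the knockdown libraries and 13.1 RPKM in the control. Both libraries were far below the control, though they differed from each other by a larger share of their level than those of Gstp1. Their mean of 1.20 ± 0.359 RPKM (SD, n = 2) was 11.0-fold lower than the control, and the log2 ratio was -2.69 (SE 0.17, adjusted p = 0.000450 by limma). If the control is given 3 times the SD of a knockdown library, the limma adjusted p becomes 0.0506, over the threshold. None of its 50-base windows occurred in another annotated gene.

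The other alpha genes in the table that passed the filter also fell. Gsta2 was 0.586 and 0.644 RPKM in the knockdown libraries and 3.25 RPKM in the control, a log2 ratio of -1.40 (limma adjusted p = 0.000927). It passed the filter only through its control value, both knockdown values being under 1 RPKM. Gsta1 averaged 1.66 ± 0.226 RPKM (SD, n = 2) in the knockdown libraries and was 3.88 RPKM in the control, a log2 ratio of -0.88 (limma adjusted p = 0.00453). Gsta1 and Gsta2 shared 89.7% and 64.2% of their windows with other genes, so their separate levels are uncertain. Gsta3 was below 0.2 RPKM in every library. Summed over Gsta1, Gsta2, Gsta3 and Gsta4, alpha transcripts were at 4.05 and 3.27 RPKM in the knockdown libraries and 20.4 RPKM in the control.

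Gsto1 (ENSMUSG00000025068), an omega-class enzyme that acts as a thiol transferase and reduces dehydroascorbate, fell slightly. It was 5.10 and 4.80 RPKM in the knockdown libraries and 7.36 RPKM in the control. The knockdown values were close together and both under the control, with a log2 ratio of -0.49 (SE 0.11, adjusted p = 0.0149 by limma). A control with 2 times the SD of a knockdown library ended the call (limma adjusted p = 0.128). Its neighbour Gsto2 was 0.271 and 0.290 RPKM in the knockdown libraries and 0.520 RPKM in the control, under the filter.

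Gstt1 (ENSMUSG00000001663), a theta-class enzyme that conjugates small halogenated compounds, was the member with the largest rise. It was 4.06 and 3.87 RPKM in the knockdown libraries and 1.05 RPKM in the control. Both libraries stood well above the control and agreed closely. The mean of 3.97 ± 0.130 RPKM (SD, n = 2) was 3.79 times the control, and the log2 ratio was 1.28 (SE 0.11, adjusted p = 0.00113 by limma). Giving the control 3 times the SD of a knockdown library ended the call (limma adjusted p = 0.103).

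Another theta gene moved the other way. Gstt3, next to it on the chromosome, was 3.55 and 4.39 RPKM in the knockdown libraries and 5.76 RPKM in the control, a log2 ratio of -0.45 (limma adjusted p = 0.0448). Gstt2 (ENSMUSG00000033318) was 0.801 and 0.620 RPKM in the knockdown libraries and 0.620 RPKM in the control. Its second knockdown library was level with the control and its first a little above. The summed level of the 3 theta genes was 8.41 and 8.88 RPKM in the knockdown libraries and 7.42 RPKM in the control.

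**Figure D2:**
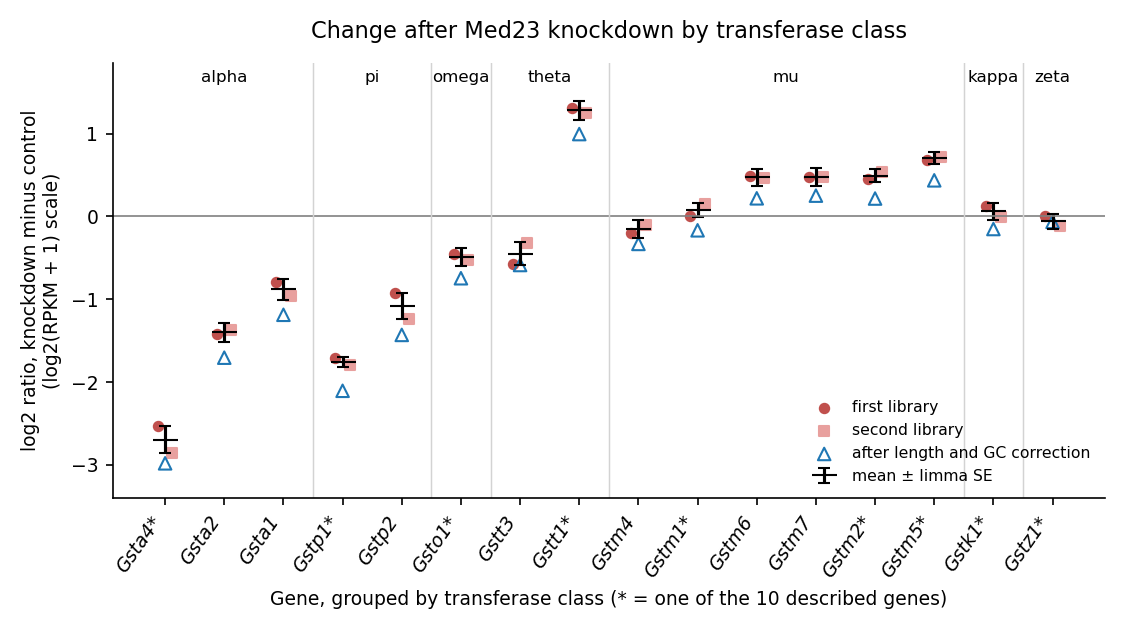
Log2 ratio of knockdown to control on the log2(RPKM + 1) scale for the 16 soluble transferase genes tested, grouped by class, with the first (circles) and second (squares) knockdown library, the mean with its limma SE (black) and the mean after correction for transcript length and GC content (triangles). Alpha and pi genes all lie below 0, while Gstm2, Gstm5, Gstm6 and Gstm7 lie above it and move closer to 0 after the correction.

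Mu-class genes, whose enzymes conjugate a wide range of electrophiles, tended to higher values. Gstm5 (ENSMUSG00000004032) was 34.8 and 35.6 RPKM in the knockdown libraries and 21.2 RPKM in the control, a log2 ratio of 0.70 (SE 0.08, adjusted p = 0.00191 by limma). Gstm2 (ENSMUSG00000040562) was 30.0 and 31.7 RPKM in the knockdown libraries and 21.6 RPKM in the control, a log2 ratio of 0.49 (SE 0.08, adjusted p = 0.00632 by limma). The Gstm2 call was lost when the control was given 2 times the SD of a knockdown library (limma adjusted p = 0.0711) and after the correction for length and GC content (0.0716), and the Gstm5 call with 3 times that SD (0.145). For both genes the knockdown libraries lay above the control and within 2 RPKM of each other. Gstm1 (ENSMUSG00000058135), the most abundant mu gene, was 63.0 and 69.4 RPKM in the knockdown libraries and 62.6 RPKM in the control, and its log2 ratio of 0.08 (SE 0.08) did not pass the test (limma adjusted p = 0.453). The first knockdown library and the control were nearly equal for it. Gstm1 shared 23.1% of its windows with other genes and Gstm2 9.36%, while Gstm5 shared none.

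Outside the described members, Gstm6 was 8.29 and 8.13 RPKM in the knockdown libraries and 5.64 RPKM in the control, and Gstm7 was 2.34 RPKM in both knockdown libraries, 1.67 times its control level. Both were called higher, with log2 ratios of 0.47 and 0.48 (adjusted p = 0.0137 and 0.0185 by limma). Gstm4 was 3.81 and 4.13 RPKM in the knockdown libraries and 4.52 RPKM in the control and did not pass (limma adjusted p = 0.302). In all 4 of 6 mu genes tested were called higher and 0 lower, also at an unadjusted limma p under 0.05. Of all tested genes 26.3% were called higher, and of those with short transcripts 51.5%. After the correction for length and GC content 1 mu gene was higher, 1 lower and 4 did not pass. Mgst1, a microsomal transferase, also rose, at 13.1 RPKM in both knockdown libraries and 9.62 RPKM in the control (limma adjusted p = 0.0159). The correction for transcript length and GC content described next ended that call (log2 ratio 0.16, limma adjusted p = 0.210). Over the 10 tested transferase genes outside the members, 3 were higher and 4 lower, where 26.3% and 24.0% of all tested genes were. Their median log2 ratio was 0.06. The 4 lower genes include Gsta2, which passed the filter only through its control value.

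Short transcripts at large also tended to higher values after knockdown. Over 9614 tested genes with an annotated transcript, the log2 ratio fell with transcript length (Spearman -0.357, across genes, which share the same 3 libraries). The 1136 tested genes with transcripts under 1500 bases had a median log2 ratio of 0.33, and 51.5% of them were called higher and 10.7% lower. Transferase transcripts are short, 8 of the 10 members being under 1500 bases, with a median of 1144 bases beside 3383 bases for tested genes. After a loess correction for length and GC content, chosen after seeing the data, Gstm5 kept its call at a log2 ratio of 0.44 (limma adjusted p = 0.00186). Gstm2 went to 0.22 (adjusted p = 0.0716), Gstm6 to 0.22 (adjusted p = 0.125) and Gstm7 to 0.25 (adjusted p = 0.123), and Gstm4 was then called lower, at -0.33 (adjusted p = 0.0404). The same correction left the falls of Gsta4, Gstp1 and Gsto1 called, at -2.98, -2.11 and -0.75, and the rise of Gstt1 called, at 0.99. By sign, the members' falls lay opposite to the median of short transcripts and their rises on the same side. The part of this trend in any of these changes was not tested. Calls after the correction, that of Gstm4 included, were easier to reach than those of the main fit. For Gstm5 the ratio shrank from 0.70 to 0.44 while its SE grew from 0.076 to 0.090. Its adjusted p by limma was still 0.00186, beside 0.00191 in the main fit.

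**Figure D3:**
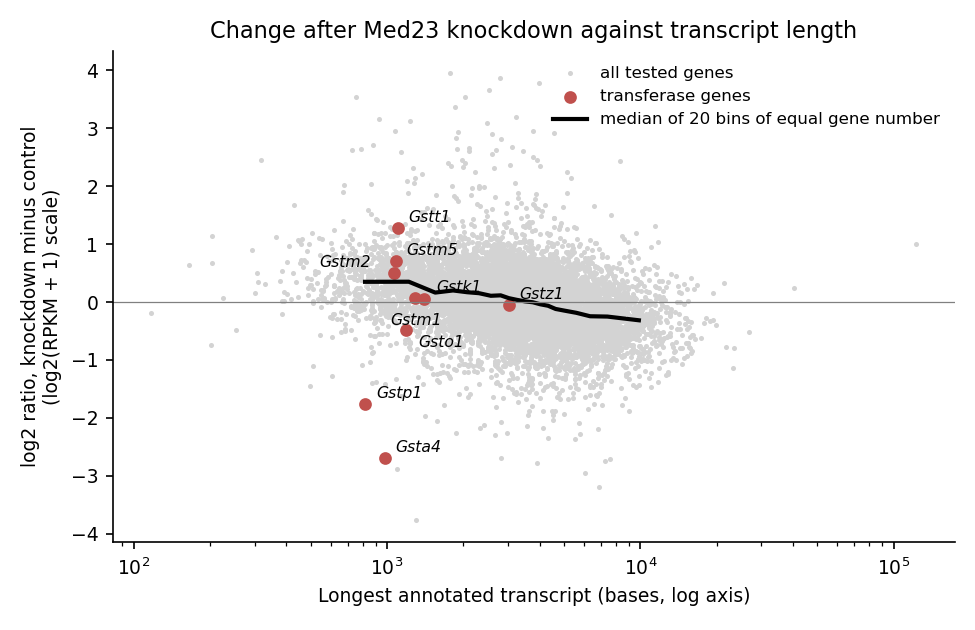
Log2 ratio of knockdown to control against the length of the longest annotated transcript (log axis) for tested genes (grey) and the 9 tested transferase members (red), with the median of 20 bins of equal gene number (black line). Short transcripts lie above 0 in the median, where Gstm2 and Gstm5 lie a little above the line, Gstt1 lies further above it and Gsto1, Gstp1 and Gsta4 below it. Gstm1 and Gstk1, which did not pass the test, also lie below the line.

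The zeta and kappa members had values near their control levels. Gstz1 (ENSMUSG00000021033) isomerises maleylacetoacetate in the breakdown of tyrosine. It was 21.3 and 19.5 RPKM in the knockdown libraries and 21.3 RPKM in the control, a log2 ratio of -0.06 (SE 0.09, adjusted p = 0.629 by limma). Gstk1 (ENSMUSG00000029864), an enzyme of mitochondria and peroxisomes, was 14.6 and 13.3 RPKM in the knockdown libraries and 13.3 RPKM in the control, a log2 ratio of 0.06 (SE 0.10, adjusted p = 0.640 by limma). For each gene 1 knockdown library was level with the control, and neither could be shown to differ from it with these libraries. Fah, which acts just after Gstz1 in tyrosine breakdown, was 8.40 and 8.20 RPKM in the knockdown libraries and 11.5 RPKM in the control, a log2 ratio of -0.43 (limma adjusted p = 0.0160). Tat, Hpd and Hgd, the earlier enzymes of that route, were not listed, so 1 of 2 tested genes of that route was lower, with a median log2 ratio of -0.24. Among all tested genes 24.0% were lower.

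The order of the members by level changed with the fall of Gstp1. In the knockdown libraries Gstm1 at 66.2 ± 4.49 RPKM and Gstp1 at 63.7 ± 2.65 RPKM (SD, n = 2 each) led with overlapping values. Gstm5, Gstm2, Gstz1 and Gstk1 followed at 35.2, 30.8, 20.4 and 13.9 RPKM, without overlap between neighbours. Gsto1, Gstt1, Gsta4 and Gstt2 came last, at 4.95, 3.97, 1.20 and 0.711 RPKM. In the control Gstp1 stood first at 217.7 RPKM and Gstm1 second at 62.6 RPKM. There Gstm2, Gstz1 and Gstm5 lay together at 21.6, 21.3 and 21.2 RPKM, and Gstk1 and Gsta4 at 13.3 and 13.1 RPKM, with gaps smaller than the SD of these genes between the knockdown libraries. Gsto1, Gstt1 and Gstt2 were the lowest in the control.

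The make-up of the transferase RNA shifted with it. The summed level of the 10 members was 240.7 and 241.5 RPKM in the knockdown libraries and 379.9 RPKM in the control. Gstp1 made up 27.3% and 25.6% of that sum in the knockdown libraries and 57.3% in the control. Without Gstp1, the other members summed to 175.1 and 179.6 RPKM in the knockdown libraries and 162.1 RPKM in the control. Over the 19 soluble transferase genes in the table, mu genes made up 53.2% and 56.5% in the knockdown libraries and 28.1% in the control. Alpha genes made up 1.51% and 1.22% in the knockdown libraries and 4.90% in the control. These sums are descriptions with no test, and they hold for values that had been made equal in distribution between libraries, not for amounts of RNA per cell.

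**Figure D4:**
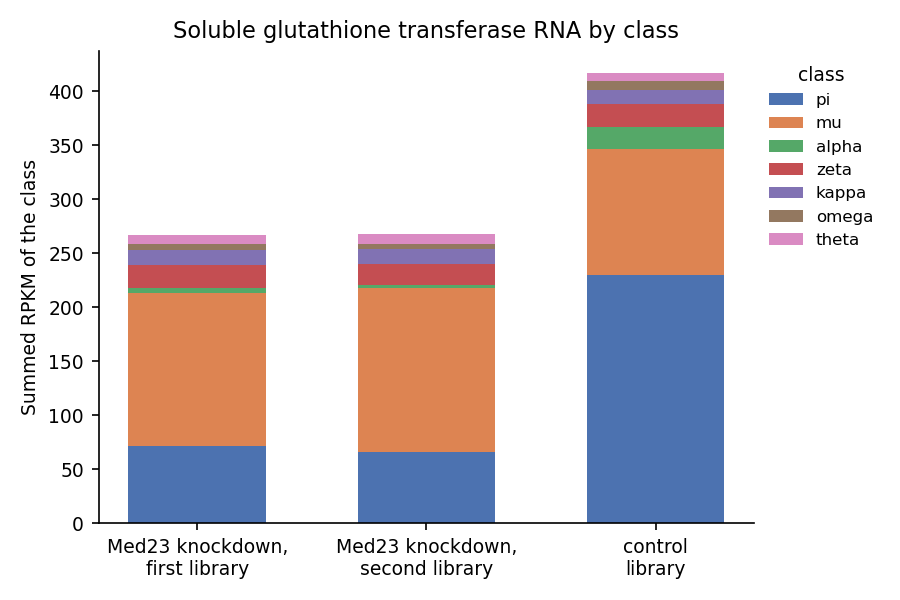
Summed RPKM of 19 soluble transferase genes by class in the first and second Med23 knockdown library and in the control. The pi class (bottom) is 71.3 and 66.3 RPKM after knockdown and 229.6 RPKM in the control, while the mu class above it is 142.2 and 151.3 RPKM after knockdown and 117.0 RPKM in the control.

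Neighbouring genes, chosen by their place on the chromosome in RefSeq's order, did not all move with the members. Next to Gsta4, the listed genes on one side were Gsta1, Gm3776 and Gsta2, which were called lower, with Gm10639 among them under the filter, and then Mto1, which did not pass (log2 ratio -0.04), and Eef1a1, which was higher (0.48). On the other side Fbxo9 was higher (0.49), Elovl5 lower (-0.33) and Gclc lower (-1.22). Next to Gstp1 and Gstp2, Ndufv1 was lower (-0.45) and Cdk2ap2 higher (0.34). Around Gstt1, Gstt3 was lower and Ddt, a tautomerase gene beyond it, higher (0.38). Around Gsto1, most tested neighbours were called lower as it was, namely Slk (-0.96), Add3 (-0.95), Xpnpep1 (-0.86), Mxi1 (-0.73), Rbm20, Pdcd4 and Pdcd11. There Sh3pxd2a, Smndc1 and Smc3 did not pass, and the other listed neighbours were under the filter. Of all tested genes, 24.0% were called lower and 26.3% higher. The mu genes lie side by side, with the 4 that rose next to each other, and Csf1 near one end of them was higher (0.88) while Ampd2 at the other end did not pass (-0.02).

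Genes that supply and recycle glutathione were examined beside the transferases. For synthesis and precursor supply, 6 of 11 tested genes were lower and 3 higher, where 24.0% of all tested genes were lower and 26.3% higher. Their median log2 ratio was -0.67, and that of all tested genes 0.01. Gclc, the catalytic subunit of the enzyme that limits glutathione synthesis, was 11.3 and 10.4 RPKM in the knockdown libraries and 26.6 RPKM in the control, a log2 ratio of -1.22 (limma adjusted p = 0.000864). Gclm, its modifier subunit, was 3.63 and 4.27 RPKM in the knockdown libraries and 8.49 RPKM in the control (limma adjusted p = 0.00348). Slc7a11, which imports cystine, was 0.558 and 0.719 RPKM in the knockdown libraries and 1.92 RPKM in the control, a log2 ratio of -0.84 (limma adjusted p = 0.00475), which the correction for length and GC content brought to -0.38 (adjusted p = 0.0825). Chac2, which degrades glutathione, was lower (-0.81, limma adjusted p = 0.00444). Slc7a11 and Chac2 passed the filter only through their control values, as their mean in the knockdown libraries was under 1 RPKM. Ggt1, which breaks down glutathione outside the cell, and Anpep were lower too. Slc3a2, the partner chain of Slc7a11, Chac1 and Ggt7 were higher. Gss, the second enzyme of synthesis, was 6.49 and 6.61 RPKM in the knockdown libraries and 5.72 RPKM in the control and did not pass (limma adjusted p = 0.221). The 6 lower genes and the median of -0.67 include Slc7a11 and Chac2. Without both, the middle log2 ratio of the list was 0.16, that of Lap3, which did not pass.

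Among peroxidases, reductases and glutaredoxins, 2 of 10 tested genes were lower, beside 24.0% of all tested genes, and 3 higher, beside 26.3%. Their median log2 ratio was 0.18. The 2 that fell are the reductases. Gsr, which regenerates reduced glutathione, was 1.57 and 1.77 RPKM in the knockdown libraries and 12.1 RPKM in the control, a log2 ratio of -2.30 (SE 0.12, adjusted p = 0.000277 by limma). Txnrd1, the cytosolic thioredoxin reductase, was 30.3 and 33.3 RPKM in the knockdown libraries and 119.4 RPKM in the control, a log2 ratio of -1.88 (limma adjusted p = 0.000226). Glrx3 and Glrx2, glutaredoxins, rose with log2 ratios of 0.71 and 0.69 (adjusted p = 0.00324 and 0.00651 by limma), as did Gpx8 (0.51). The transcript of Gpx8 is under 1500 bases, and 51.5% of tested genes with such transcripts were called higher. Gpx1, Gpx4, Prdx6, Glrx and Glrx5 did not pass.

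Of 5 tested pumps and carriers for glutathione conjugates and other organic anions, 1 was higher, 1 lower and 3 did not pass, with a median log2 ratio of -0.25. Among all tested genes 26.3% were higher and 24.0% lower. Abcg2, an exporter of many drugs, was 8.80 and 9.99 RPKM in the knockdown libraries and 4.28 RPKM in the control (limma adjusted p = 0.00257). Abcc4 was 0.770 and 0.835 RPKM in the knockdown libraries and 2.32 RPKM in the control (limma adjusted p = 0.00321). It passed the filter only through its control value, both knockdown values being under 1 RPKM. Abcc1, the main exporter of glutathione conjugates, was 16.8 and 19.9 RPKM in the knockdown libraries and 22.0 RPKM in the control, and Abcc5 was 5.06 and 5.24 RPKM in the knockdown libraries and 6.35 RPKM in the control. Neither passed (adjusted p = 0.133 and 0.0921 by limma).

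Of other enzymes that clear aldehydes, none was called lower by limma. Of 12 tested, 4 were higher, 0 lower, also at an unadjusted p under 0.05, and 8 did not pass, with a median log2 ratio of 0.18. The 33.3% called higher lay near the 26.3% of all tested genes, while 24.0% of all tested genes were lower and none of these 12. Whether these enzymes differ from other genes was not tested. Akr1b8, Akr1c13, Cbr1 and Akr1b3, reductases of carbonyl groups, rose with log2 ratios of 0.71, 0.69, 0.62 and 0.52 (adjusted p = 0.00125, 0.00690, 0.00519 and 0.00723 by limma). Akr1b8 and Akr1c13 have transcripts under 1500 bases, and 51.5% of tested genes with such transcripts were called higher. Values corrected for length are not given for these genes. Aldh2 was 36.6 and 36.2 RPKM in the knockdown libraries and 36.9 RPKM in the control. Aldh1b1, under the filter with a mean below 1 RPKM, was 0.351 and 0.528 RPKM in the knockdown libraries and 1.80 RPKM in the control.

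Of 8 tested genes for Nrf2, its regulators and its known targets Hmox1 and Nqo1, 4 were lower and 3 higher, with a median log2 ratio of -0.42. Among all tested genes 24.0% were lower and 26.3% higher, with a median of 0.01. Both targets were lower, and of the 6 genes of Nrf2 and its regulators 2 were lower and 3 higher, with a median of 0.03. Nfe2l2 was 18.1 and 17.2 RPKM in the knockdown libraries and 26.2 RPKM in the control, a log2 ratio of -0.55 (limma adjusted p = 0.00532). Hmox1, a haem oxygenase, was 30.2 and 34.4 RPKM in the knockdown libraries and 136.6 RPKM in the control, a log2 ratio of -2.05 (limma adjusted p = 0.000239). Bach1, which represses Hmox1, rose with a log2 ratio of 0.64 (limma adjusted p = 0.00506), and Maff, a small partner of Nrf2 and Bach1, with 0.55 (limma adjusted p = 0.00994). Nqo1, a quinone reductase, and Keap1, which holds Nrf2 inactive, were lower, Mafk was higher and Mafg did not pass.

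**Figure D5:**
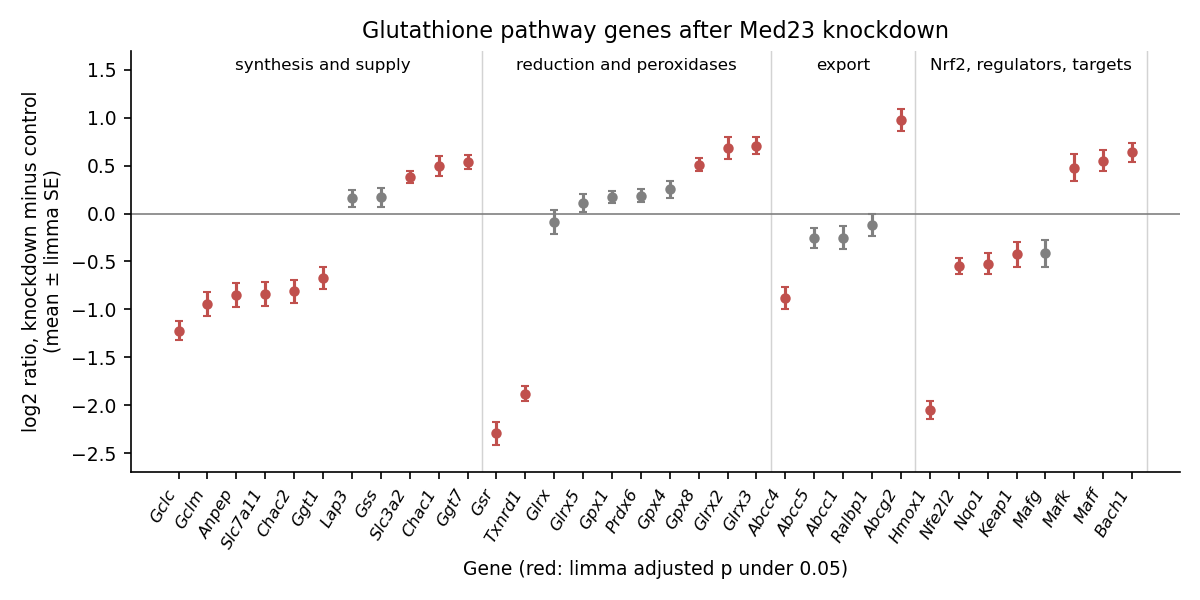
Log2 ratio of knockdown to control on the log2(RPKM + 1) scale, with limma SE, for tested genes of glutathione synthesis and supply, reduction and peroxidases, export, and Nrf2 with its regulators and targets; red marks genes called by limma. Gsr, Hmox1 and Txnrd1 are the lowest, at -2.30, -2.05 and -1.88, and Abcg2 is the highest, at 0.97.

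The genes whose 3 values were most like those of Gsta4, by Euclidean distance over log2(RPKM + 1) centred on each gene's mean, were Syt4, Rasd2 and Cited1 (distances 0.11, 0.18 and 0.19). Those nearest to Gstp1 were Impad1, Itgav and 4931406P16Rik (0.02, 0.06 and 0.08). Impad1 was 10.5 and 10.1 RPKM in the knockdown libraries and 37.1 RPKM in the control. With 3 libraries such likeness says only that these genes fell by similar amounts.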

How the data were processed

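Total RNA from B16F10 cells was sequenced in 3 libraries, 2 of Med23 knockdown and 1 of control cells. The deposited values were RPKM made by the authors. CASAVA 1.4, TopHat, Cufflinks and the build mm9 are listed, without their roles, per the submitters' processing notes. The annotation and gene filter are not given in the sources used here. After sorting, the 3 columns were equal (relative tolerance 1e-09) at 95.3% of positions, so the libraries had been given a common distribution, read depth is unknown, and the spread of the most abundant genes is understated.

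Genes averaging 1 RPKM or more were fitted as log2(RPKM + 1) with limma 3.58.1 in R 4.3.3 (eBayes with an intensity trend, 1 residual degree of freedom, prior of 4.37), with Benjamini-Hochberg adjustment over all 9722. The step was tested on simulated data in which the control had the same SD as the knockdown libraries. That test could not check the spread assumed for the lone control. Alternatives were another pseudocount, filters, scalings, prior, control SD and fold limit, each knockdown library left out and, added later, a loess correction (span 0.5) for length and GC content of the longest GENCODE M21 transcript, which had values for 98.9% of tested genes. That annotation is of another build than mm9, so no gene coordinates on mm9 are given, and the promoter coordinates are of GRCm38.p6. Named were all members, up to 4 genes of each pathway list with the largest smaller change of both libraries, the 3 genes nearest to each of 2 members, and genes singled out by position, by counts of few or as contrasts after their values were seen. The members and lists were chosen with earlier results of these data known. Tables were read with Python 3.11.15 and pandas 2.3.3, promoters aligned with Biopython 1.88 and plots drawn with matplotlib 3.10.9.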

Additional observations from a re-analysis of the deposited data

How the results depend on the processing

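The control had 1 library, and the results depended most on the spread assumed for it. With a control SD of 2 times that of a knockdown library, limma called 1493 of all tested genes in place of 4888 and 4 members in place of 6. Gstm2 and Gsto1 were the members lost (adjusted p = 0.0711 and 0.128). With 3 times, limma called 195 genes and 1 member, Gstp1. Limma adjusted p-values ran from 3.47e-09 to 0.0210 for Gstp1 over its alternatives, from 3.59e-08 to 0.0506 for Gsta4 and from 7.01e-05 to 0.103 for Gstt1. They ran from 0.00186 to 0.145 for Gstm5, from 0.00632 to 0.266 for Gstm2 and from 0.000326 to 0.372 for Gsto1. Except for Gstm2, each low end came from the correction for length and GC content, which was chosen after seeing the data. Calls were easier to reach in that fit, so these low ends cannot be compared with values from other settings. In the other settings the lowest limma adjusted p was 0.000140 for Gstp1, 0.000450 for Gsta4 and 0.000962 for Gstt1. For Gstm5 it was 0.00191 and for Gsto1 0.0144. The correction for length and GC content turned the signs of 2 members that were not called, Gstm1 to -0.17 and Gstk1 to -0.15. Under the pseudocount, filter, scaling and trend alternatives the called members kept their direction and call, except Gstt1, which was not tested at 5 RPKM. The libraries already shared a distribution, so the scalings could change little. Scaling to the same median left the members' log2 ratios and adjusted p-values as they were. Without 1 knockdown library the log2 ratio lay between -2.86 and -2.53 for Gsta4, -1.80 and -1.72 for Gstp1, and 1.25 and 1.31 for Gstt1, and 3 members were past 2-fold either way. No paired analysis was possible because the control is a single library and shares at most 1 replicate number with the knockdown libraries.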
